A study of Mus musculus with 20 samples.

Results

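Delivery of lipoprotein fatty acids to heart muscle was followed through 6 genes: lipoprotein lipase (Lpl), its endothelial carrier Gpihbp1, its folding factor Lmf1, its inhibitor Angptl4, and the lipoprotein receptors Vldlr and Lrp1. They were taken by symbol from the 25052 genes of the tables, with earlier results of these data known, and each of the 6 had 1 row. RNA was from frozen left ventricle of male mice, in 4 groups of 5 mice. The groups were ACC2 iKO mice on high-fat diet (HFD), WT mice on HFD, ACC2 iKO mice on chow, and WT mice on chow. Both genotypes were ACC2 flox/flox littermates, and at 8 weeks of age both were injected with tamoxifen on 5 days at 20 mg/kg. The iKO mice also carried MerCreMer, a tamoxifen-activated Cre recombinase, and lost Acacb, the gene of acetyl-CoA carboxylase 2 (ACC2), whereas the WT mice carried no Cre. Feeding with HFD or chow started 4 weeks after the last injection and lasted 16 weeks. The labels used here do not name the promoter of MerCreMer. There was no group with Cre and without floxed alleles, so the loss of ACC2 and the presence of an active Cre cannot be told apart. Libraries RT1 to RT10 were all from chow hearts and RT11 to RT20 all from HFD hearts, so diet and anything that went with the numbering cannot be told apart either.

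Triglyceride-rich lipoproteins are too large to cross the capillary wall, so their fat is hydrolysed on its inner surface. Cardiomyocytes make lipoprotein lipase, which folds in the endoplasmic reticulum with the help of LMF1, is secreted, and is carried across endothelial cells by GPIHBP1. ANGPTL4, whose gene responds to fatty acids and fasting, inactivates the enzyme, while the VLDL receptor binds whole particles and their remnants, and LRP1 is an endocytic receptor for remnants and many other ligands. ACC2 makes malonyl-CoA at mitochondria, which holds back the entry of fatty acids through carnitine palmitoyltransferase.

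Acacb had 11.45, 10.61, 10.14, 9.05 and 11.92 FPKM (fragments per kilobase of transcript per M mapped fragments, the authors' unit) in iKO HFD hearts, against 39.7, 35.84, 36.56, 41.92 and 34.9 FPKM in WT HFD hearts. In chow hearts it had 8.55, 9.46, 9.17, 9.19 and 8.37 FPKM in iKO, against 37.5, 41.07, 39.27, 37.42 and 37.77 FPKM in WT, so every library matched its genotype label. What was left in iKO was 28.1% of the WT mean on HFD and 23.2% on chow, and within iKO hearts Acacb was called higher on HFD (log2 fold change 0.22, adjusted p = 0.0278). That call was lost without RT2, RT9, RT11, RT13 or RT20 (adjusted p up to 0.0808) and without a filter or with the 2 groups alone (up to 0.0901), and the diet effect in iKO less that in WT was 0.25 (adjusted p = 0.989). Reads assigned to genes were estimated at 12.55 M to 31.9 M per library. Cardiomyocyte markers (6 genes) summed to between 13892 and 18855 FPKM, while 6 adipocyte markers summed to at most 3.93 FPKM and hepatocyte markers to at most 0.3 FPKM. Libraries RT4 (iKO chow) and RT1 (WT chow) stood apart by 4 markers of atrial muscle, which summed to 358.32 FPKM in RT4 and 691.36 FPKM in RT1 and to at most 186.08 FPKM in the others. Genes were tested with limma on log2(FPKM + 1), adjusted over the 12775 genes that passed the filter on low values, and called at an adjusted p under 0.05. All 6 genes passed the filter. The share of all tested genes called was 0.172% for iKO against WT on HFD, 1.06% for iKO against WT on chow, 10% for HFD against chow in iKO and 8.04% for HFD against chow in WT. With libraries rescaled by median-of-ratios size factors, the split of calls moved from 13 higher and 9 lower to 8 and 17 for genotype on HFD, and from 44 and 92 to 19 and 124 for genotype on chow. For diet in iKO it moved from 211 higher and 1068 lower to 324 and 241, and for diet in WT from 98 and 929 to 180 and 152. The 4 comparisons share groups pairwise, so they are not independent of each other.

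FPKM are scaled per length, so levels can be set beside each other between genes. In WT chow hearts Lpl was the 38th of 25052 genes by mean level (1541 ± 36.3 FPKM, SD, n = 5). Gpihbp1 (71.5 ± 4.99 FPKM) and Vldlr (63.2 ± 2.50 FPKM) followed, with library ranges that overlapped. Lmf1 (9.98 ± 0.631 FPKM) and Lrp1 (8.90 ± 1.23 FPKM) were next and overlapped as well, and Angptl4 had the lowest level (2.64 ± 1.12 FPKM), above 31.2% of the genes tested. In iKO HFD hearts Lpl was still the highest of the 6 by mean level (1069 ± 76.8 FPKM), Gpihbp1 (82.9 ± 16.0 FPKM) lay above Vldlr (50.5 ± 4.4 FPKM) without overlap, and Lrp1 (13.5 ± 4.42 FPKM), Angptl4 (12.3 ± 4.31 FPKM) and Lmf1 (10.4 ± 0.696 FPKM) overlapped. Between libraries of a group Angptl4 varied most, with coefficients of variation of 34.9% to 55.3%, while those of Lpl were 2.36% to 7.18%.

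**Figure D1:**
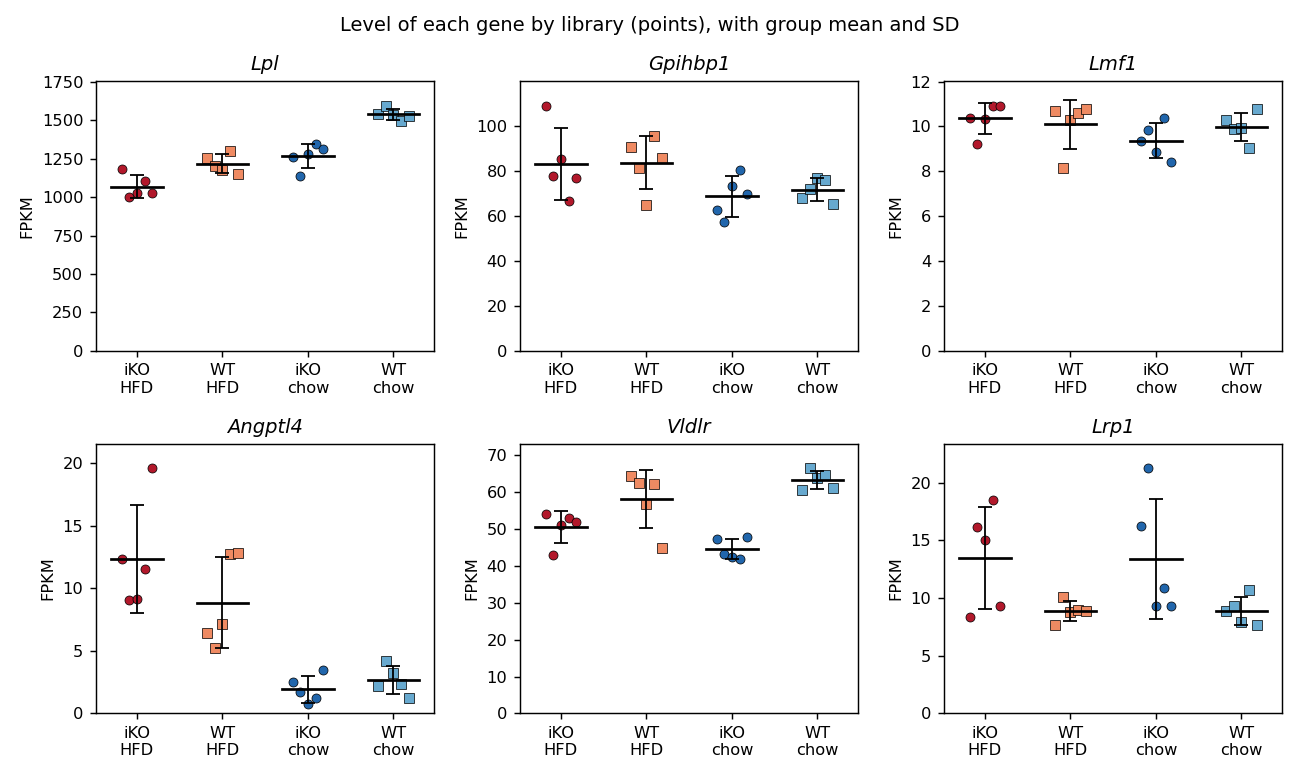
Level in FPKM (vertical axes, each from 0) of the 6 genes in every library, by group (horizontal axes); points are libraries, horizontal lines are group means and error bars are SDs over 5 mice. By group mean, Lpl is lowest in iKO HFD hearts (1069 FPKM) and highest in WT chow hearts, with WT HFD and iKO chow hearts overlapping between them. Angptl4 is high in both HFD groups, Vldlr is lowest in iKO chow hearts, and Lrp1 is spread widely among iKO libraries.

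Lpl (ENSMUSG00000015568.16, protein coding, chr8:68880491-68907448 on the plus strand of GRCm38, 5 annotated transcripts) had 1186.83, 1000.41, 1025.82, 1106.43 and 1027.32 FPKM in iKO HFD hearts, against 1257.58, 1206.07, 1178.01, 1299.43 and 1152.7 FPKM in WT HFD hearts. On HFD 4 of the 5 iKO libraries lay under every WT library, and RT11 (1186.83 FPKM) overlapped with WT. In chow hearts Lpl had 1262.77, 1139.05, 1281.85, 1345.69 and 1313.96 FPKM in iKO, against 1543.76, 1597.16, 1533.26, 1496.53 and 1531.89 FPKM in WT. Every iKO chow library was under every WT chow library.

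On chow, Lpl fell to 82.4% of the WT mean in iKO hearts, a log2 fold change of -0.28 (SE 0.05, limma, adjusted p = 0.00266), with no overlap between the groups. Without RT4 and RT1 it was -0.24 (adjusted p = 0.0259). Ranges of 3.19% of all tested genes did not overlap in this comparison. Of the 6 genes 2 were called lower on chow, Lpl and Vldlr, and none higher, where 0.72% of all genes were called lower. In bulk tissue, less RNA per cell and fewer cells of the type that makes it cannot be told apart. None of the 6 cardiomyocyte markers was called between genotypes on either diet, and their median log2 fold change was 0.01 on chow. On HFD the Lpl mean of iKO hearts was 87.7% of the WT mean (log2 fold change -0.19, 95% interval -0.29 to -0.09, adjusted p = 0.117), which did not pass. It passed without RT11 (adjusted p = 0.0416) and with library quality weights (log2 fold change -0.22, adjusted p = 0.0178). None of the 6 genes was called between genotypes on HFD, where 0.102% of all genes were called higher and 0.0705% lower, and none had groups free of overlap, as 3.24% of all genes did. The genotype effect on Lpl on HFD less that on chow was 0.09 (95% interval -0.05 to 0.24, adjusted p = 0.999).

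With HFD, Lpl was 84.3% of the chow mean in iKO hearts (log2 fold change -0.25, adjusted p = 0.00283) and 79.1% of it in WT hearts (log2 fold change -0.34, adjusted p = 0.000253). HFD and chow libraries overlapped in iKO and did not in WT, where the ranges of 10.8% of all tested genes did not overlap either. The order of the group means was WT chow, iKO chow, WT HFD, iKO HFD, of which iKO chow and WT HFD overlapped. The calls between diets depend on the scaling of libraries. With median-of-ratios scaling the log2 fold changes were -0.16 in iKO (adjusted p = 0.187) and -0.23 in WT (adjusted p = 0.0536), and with upper-quartile scaling -0.18 in iKO (adjusted p = 0.112) and -0.25 in WT (adjusted p = 0.0260). As deposited, 3 of the 6 cardiomyocyte markers were called lower on HFD in iKO hearts and 4 of 6 in WT hearts. Their median log2 fold changes were -0.19 in iKO and -0.17 in WT. Of all tested genes 8.36% were called lower in iKO and 7.27% in WT, with medians of -0.07 and -0.08. The part of the cardiomyocyte markers in the Lpl result was not tested. All 6 markers of adipocytes, which also make lipoprotein lipase, were under the filter, with sums of 0.04 to 0.52 FPKM in iKO HFD hearts, 0.24 to 0.84 FPKM in WT HFD hearts, 0.19 to 3.12 FPKM in iKO chow hearts and 0.28 to 3.93 FPKM in WT chow hearts, and their part in the Lpl result was not tested either.

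**Figure D2:**
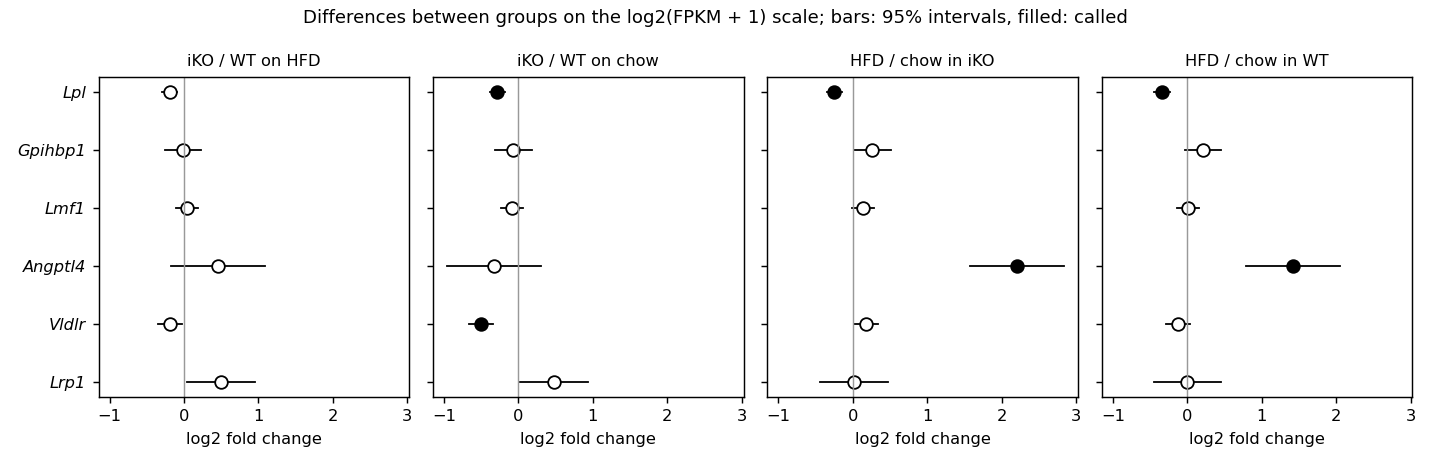
Log2 fold changes of the 6 genes on the log2(FPKM + 1) scale (horizontal axes) in 4 comparisons of 5 against 5 libraries, with limma's 95% intervals as bars and filled points for genes called at an adjusted p under 0.05. Lpl is called in 3 of the 4 panels, Angptl4 in both diet panels (2.20 in iKO, 1.42 in WT) and Vldlr only for genotype on chow (-0.50).

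Lmf1 (ENSMUSG00000002279.18, chr17:25579085-25662826, plus strand), the endoplasmic reticulum protein that Lpl needs to fold, ranged from 9.22 to 10.93 FPKM in iKO HFD hearts, from 8.16 to 10.76 FPKM in WT HFD hearts, from 8.43 to 10.38 FPKM in iKO chow hearts and from 9.05 to 10.77 FPKM in WT chow hearts. It passed the test in no comparison. Its log2 fold changes were 0.04 for genotype on HFD, -0.08 for genotype on chow, 0.13 for diet in iKO and 0.01 for diet in WT, each with an SE of 0.07. The 95% interval for diet in iKO, the one of the 4 with the highest upper end, ran from -0.01 to 0.28. The sign for genotype on HFD turned to -0.03 under median-of-ratios scaling.

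Gpihbp1 (ENSMUSG00000022579.10, chr15:75596628-75599481, plus strand), the capillary endothelial protein that holds the lipase, ranged from 66.28 to 108.88 FPKM in iKO HFD hearts, from 64.82 to 95.56 FPKM in WT HFD hearts, from 57.06 to 80.12 FPKM in iKO chow hearts and from 65.02 to 76.6 FPKM in WT chow hearts. Its genotype differences were near 0, with log2 fold changes of -0.02 on HFD (95% interval -0.26 to 0.23) and -0.07 on chow (-0.31 to 0.18). The group means were above chow on HFD in both genotypes, 121% of chow in iKO (log2 fold change 0.26, adjusted p = 0.163) and 117% of chow in WT (0.21, adjusted p = 0.262), and neither passed. The 8 endothelial markers summed to 195.76 to 228.54 FPKM in iKO HFD hearts, 190.81 to 207.27 FPKM in WT HFD hearts, 191.38 to 227.41 FPKM in iKO chow hearts and 204.77 to 213.86 FPKM in WT chow hearts, and none of the 8 was called in any comparison. Set against the enzyme in the same library, Gpihbp1 stood at 77.4 ± 11.7 FPKM per 1000 FPKM of Lpl in iKO HFD hearts, 68.4 ± 7.98 in WT HFD hearts, 53.9 ± 4.38 in iKO chow hearts and 46.5 ± 3.68 in WT chow hearts (SD, n = 5 each, not tested). Libraries on HFD and chow did not overlap in this ratio in either genotype, narrowly in iKO. It was 59.90 to 91.7 on HFD and 49.5 to 59.54 on chow in iKO, and 55.0 to 74.3 on HFD and 42.4 to 50.7 on chow in WT. Lpl, the divisor, was itself called lower with HFD in both genotypes as deposited, while Gpihbp1 was called in no comparison. How many other genes part the diets when divided by Lpl was not counted.

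Angptl4 (ENSMUSG00000002289.15, chr17:33773750-33781830, minus strand), the secreted inhibitor of the lipase, had 12.34, 9.05, 9.14, 11.52 and 19.58 FPKM in iKO HFD hearts, against 2.53, 1.72, 0.74, 1.26 and 3.46 FPKM in iKO chow hearts. In WT it had 6.4, 5.23, 7.13, 12.72 and 12.78 FPKM on HFD, against 2.18, 4.17, 3.26, 2.37 and 1.21 FPKM on chow. Every HFD library was above every chow library of its genotype. Ranges of 7.8% of all tested genes did not overlap between diets in iKO, and 10.8% in WT.

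Angptl4 rose on HFD to 6.35 times the chow mean in iKO hearts (log2 fold change 2.20, SE 0.30, adjusted p = 0.000178) and to 3.36 times the chow mean in WT hearts (1.42, SE 0.30, adjusted p = 0.00907). It was the only one of the 6 called higher with diet, in either genotype, where 1.65% of all tested genes were called higher in iKO and 0.767% in WT. Lpl was the only one called lower, where 8.36% were called lower in iKO and 7.27% in WT. The diet effect in iKO less that in WT was 0.79 (SE 0.42, 95% interval -0.11 to 1.68, unadjusted p = 0.0803, adjusted p = 0.999), so a larger effect in iKO was not shown. Without RT4 and RT1 the diet effects were 2.20 in iKO (adjusted p = 0.00113) and 1.38 in WT (adjusted p = 0.0277). Between genotypes Angptl4 overlapped on both diets, with log2 fold changes of 0.46 on HFD (95% interval -0.17 to 1.09, adjusted p = 0.455) and -0.33 on chow (-0.96 to 0.31, adjusted p = 0.661). The lowest chow value, 0.74 FPKM in RT6, rests on an estimated 43 reads. That estimate takes the longest annotated transcript (3308 nt), and a shorter one would give fewer reads. The ratio of inhibitor to enzyme was 11.6 ± 4.25 FPKM of Angptl4 per 1000 FPKM of Lpl in iKO HFD hearts, 7.27 ± 2.99 in WT HFD hearts, 1.53 ± 0.822 in iKO chow hearts and 1.70 ± 0.696 in WT chow hearts (SD, n = 5 each, not tested).

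Genes that answer to fatty acids through PPAR receptors or to fasting moved with diet beside Angptl4. The list of 8 genes, all tested, also holds the receptors Ppara and Ppard. Of the 8 genes 6 rose and none fell with HFD in iKO hearts. In WT hearts 5 rose and none fell, and both counts held under both other scalings of the libraries. As deposited, 1.65% of all tested genes were called higher and 8.36% lower in iKO, and 0.767% higher and 7.27% lower in WT. Pdk4, the kinase that turns off pyruvate dehydrogenase, averaged 342 FPKM in iKO HFD hearts and 47.0 FPKM in iKO chow hearts (log2 fold change 2.89, adjusted p = 9.15e-05), and 306 FPKM in WT HFD hearts and 99.9 FPKM in WT chow hearts (1.61, adjusted p = 0.0126). Acot1, a cytosolic acyl-CoA thioesterase, Ucp3, a mitochondrial carrier, Fabp3, which binds fatty acids in heart muscle cells, and Plin2, a lipid droplet protein, rose in both genotypes, and Cpt1a, a carnitine palmitoyltransferase, in iKO alone by this test (0.46 in iKO and 0.05 in WT, interaction adjusted p = 0.528). The WT call of Ucp3 (1.04, adjusted p = 0.0315) was lost without RT1, RT5, RT8, RT10, RT12, RT18 or RT19 (adjusted p up to 0.0743). The receptors Ppara and Ppard were called in no comparison. The list's median log2 fold change was 0.49 in iKO and 0.28 in WT, where that over all tested genes was -0.07 in iKO and -0.08 in WT.

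On chow, 2 of these 8 genes fell in iKO hearts and none rose, where 0.72% of all tested genes were called lower and 0.344% higher. Acot1 averaged 3.04 FPKM in iKO chow hearts and 7.25 FPKM in WT chow hearts (log2 fold change -1.05, adjusted p = 3.19e-05), and Fabp3 averaged 2613 FPKM in iKO and 3435 FPKM in WT (-0.40, adjusted p = 1.51e-06). Pdk4 (-1.07, adjusted p = 0.206) and Ucp3 (-0.91, adjusted p = 0.161) did not pass. On chow none of the 8 had a log2 fold change above 0, and their median was -0.32. Over all 12775 tested genes 9041 were above 0, with a median of 0.05. None of the 8 was called between genotypes on HFD, where 0.172% of all tested genes were called.

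**Figure D3:**
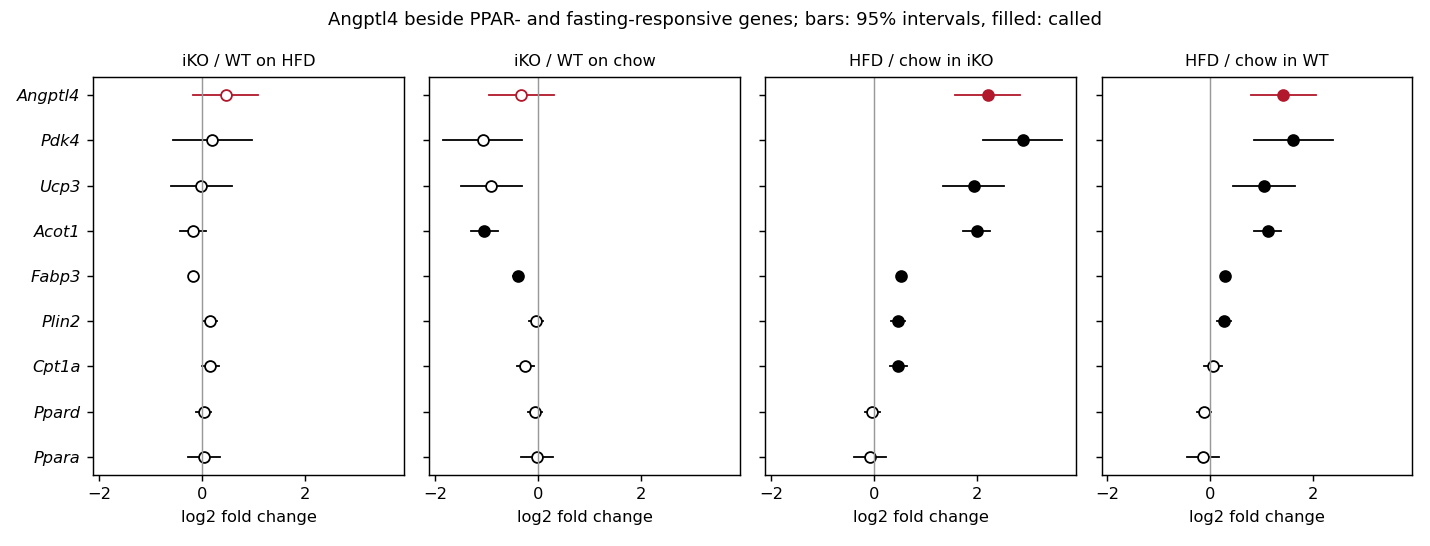
Log2 fold changes on the log2(FPKM + 1) scale of Angptl4 (red) and of the 8 listed PPAR and fasting genes (black) in the 4 comparisons. The 8 include the receptors Ppara and Ppard. Bars are limma's 95% intervals and filled points are called genes. With HFD 6 of the 8 are called higher in iKO and 5 in WT, 2 are called lower between genotypes on chow, and none between genotypes on HFD.

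Vldlr (ENSMUSG00000024924.14, chr19:27216484-27254231, plus strand of GRCm38, 8 annotated transcripts), the receptor of VLDL and its remnants, was the gene of the 6 with the largest genotype effect among those called. The 250 bases before its start in the RefSeq promoter table (GRCm38.p6, chr19:27216234-27216483, plus strand) are shown because Vldlr was called between genotypes and Lrp1, shown further on, had differences of the other sign that did not pass. They hold 41.6% G and C.
Vldlr upstream: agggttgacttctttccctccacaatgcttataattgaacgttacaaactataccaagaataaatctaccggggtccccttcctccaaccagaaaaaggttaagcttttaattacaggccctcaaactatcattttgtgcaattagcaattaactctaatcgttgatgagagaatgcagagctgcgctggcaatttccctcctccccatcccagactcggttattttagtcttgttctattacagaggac
None of 5 motifs searched on both strands was in these letters, so the sequence carries no capitals. The motifs were the nuclear receptor hexamer AGGTCA, found in 14% of 32851 promoter windows of the same length, the direct repeat of that hexamer with 1 base between the copies (0.0335%, every match also holding the hexamer), the GC box GGGCGG (32.7%), the hypoxia response core ACGTG (16.6%) and the TATA box TATAAA (12.4%). Of the 6 genes 3 (Vldlr, Lmf1 and Lrp1) were matched in that table.

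Vldlr had 53.94, 42.9, 51.05, 52.85 and 51.97 FPKM in iKO HFD hearts, against 64.28, 62.37, 56.66, 62.26 and 44.94 FPKM in WT HFD hearts. In chow hearts it had 47.31, 43.23, 42.47, 41.86 and 47.76 FPKM in iKO, against 60.51, 66.42, 63.69, 64.66 and 60.95 FPKM in WT. The chow groups were far apart, while on HFD the low WT library RT19 (44.94 FPKM) lay inside the iKO range.

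On chow, Vldlr fell to 70.4% of the WT mean in iKO hearts (log2 fold change -0.50, SE 0.08, adjusted p = 0.000741), without overlap, and -0.50 without RT4 and RT1 (adjusted p = 0.00637). On HFD the iKO mean was 87.0% of the WT mean (-0.19, 95% interval -0.35 to -0.03, adjusted p = 0.269), which did not pass. The effect on HFD less that on chow was 0.31 (SE 0.11, 95% interval 0.08 to 0.54, unadjusted p = 0.0105), which did not pass over all genes (adjusted p = 0.999, where 0.0313% of all genes were called). With HFD, Vldlr stood at 114% of the chow mean in iKO hearts (0.18, adjusted p = 0.153) and at 91.9% of it in WT hearts (-0.13, adjusted p = 0.293). Leaving out RT19 brought the iKO diet difference to an adjusted p of 0.0490. Per 1000 FPKM of Lpl in the same library there were 47.3 ± 3.16 FPKM of Vldlr in iKO HFD hearts, 47.6 ± 5.09 in WT HFD hearts, 35.2 ± 2.96 in iKO chow hearts and 41.1 ± 1.60 in WT chow hearts (SD, n = 5 each, not tested).

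Lrp1 (ENSMUSG00000040249.15, chr10:127538161-127621148, minus strand, 10 annotated transcripts), a large endocytic receptor made by fibroblasts, smooth muscle and macrophages as well as muscle cells, overlaps the antisense gene Gm16217. That gene had at most 0.09 FPKM in any library. The 250 bases before the start of Lrp1 (RefSeq, GRCm38.p6, chr10:127621149-127621398, minus strand) hold 67.2% G and C and, of the 5 motifs, 1 GC box, 99 bases before the start, whose letters on this strand are in capitals.
Lrp1 upstream: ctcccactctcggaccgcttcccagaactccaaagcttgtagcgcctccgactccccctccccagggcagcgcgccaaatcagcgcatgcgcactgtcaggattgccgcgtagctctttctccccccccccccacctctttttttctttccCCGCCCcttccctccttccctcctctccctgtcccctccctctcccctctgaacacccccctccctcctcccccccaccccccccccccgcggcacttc
The window of Vldlr shown above has no GC box, a second one listed for it, at a start further downstream, has 1, and both sequences are descriptions of the reference genome, not of these mice.

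Lrp1 had 8.32, 16.11, 15.04, 18.48 and 9.32 FPKM in iKO HFD hearts, against 7.67, 10.12, 8.81, 8.95 and 8.86 FPKM in WT HFD hearts. In chow hearts it had 16.2, 21.24, 9.32, 10.88 and 9.29 FPKM in iKO, against 8.89, 9.28, 7.94, 10.73 and 7.64 FPKM in WT. All 10 WT libraries lay between 7.64 and 10.73 FPKM, while the iKO libraries split into 5 at 15.04 FPKM or more (RT2, RT4, RT13, RT15 and RT17) and 5 at 10.88 FPKM or less.

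The iKO means of Lrp1 were 151% of the WT means on HFD (log2 fold change 0.49, 95% interval 0.04 to 0.95, adjusted p = 0.30) and 150% on chow (0.48, 95% interval 0.02 to 0.93, adjusted p = 0.344), and neither passed. Without RT4 and RT1 the chow difference was 0.31 (adjusted p = 0.671). Diet differences were 0.02 in iKO (95% interval -0.44 to 0.47) and 0.00 in WT (-0.45 to 0.46). The 5 iKO libraries with high Lrp1 were also those with high fibroblast markers. The summed level of 8 fibroblast markers (Col1a1, Col1a2, Col3a1, Dcn, Pdgfra, Lum, Postn and Tcf21) was 595.23 FPKM in RT2, 734.75 in RT4, 582.78 in RT13, 543.08 in RT15 and 634.32 in RT17. It was 319.22 to 434.09 FPKM in the other 5 iKO libraries and 335.12 to 406.45 FPKM in the WT libraries, none of which reached the 5. Dcn alone averaged 321 FPKM over the 20 libraries, so the sum rests largely on this gene. Of the 8 markers 7 had a log2 fold change above 0 between genotypes on HFD (median 0.26) and 8 on chow (median 0.35), with none called. Most tested genes were also above 0, 9509 of 12775 on HFD (median 0.06) and 9041 on chow (median 0.05). The 6 macrophage markers (Cd68, Adgre1, Csf1r, Cd163, Mrc1 and C1qa) summed to 65.3 FPKM in RT2, 73.16 in RT4, 63.03 in RT13, 58.37 in RT15 and 63.07 in RT17. They summed to 43.52 to 66.57 FPKM in the other 5 iKO libraries, of which RT7 was the highest, and to 40.35 to 52.96 FPKM in the WT libraries. All 6 had a log2 fold change above 0 between genotypes, as most tested genes did, with medians of 0.20 on HFD and 0.19 on chow and none called. The 6 smooth muscle and pericyte markers summed to 257.91 to 305.13 FPKM in iKO HFD hearts, 246.82 to 293.4 FPKM in WT HFD hearts, 266.88 to 290.66 FPKM in iKO chow hearts and 267.86 to 287.67 FPKM in WT chow hearts, with none called. No gene of these 3 lists was at 0 in every library of a group. The part of these cell types in the Lrp1 difference was not tested.

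**Figure D4:**
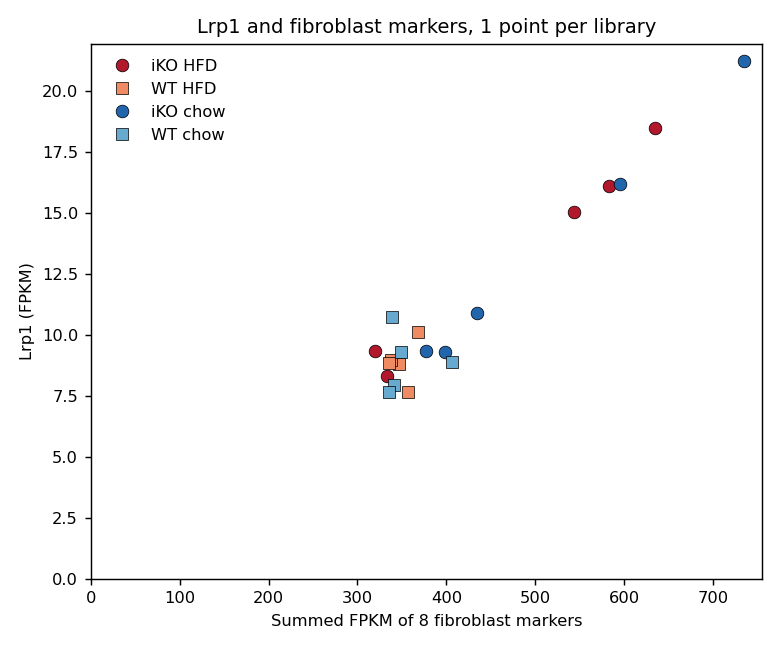
Lrp1 in FPKM (vertical axis) against the summed FPKM of 8 fibroblast markers (horizontal axis), 1 point per library, coloured by group. The 5 iKO libraries at 15.04 FPKM or more have marker sums of 543.08 or more, and all other libraries have sums of 434.09 or less. The sums rest largely on Dcn.

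Beyond the 6 genes, 54 genes of the pathway were counted by role, of which 52 had a row and 42 were tested. Apoa5 and Apoc3 were not analysed here. With HFD 10 of the 42 rose and 4 fell in iKO hearts, and 8 rose and 6 fell in WT hearts. Of all tested genes 1.65% were called higher and 8.36% lower in iKO, and 0.767% higher and 7.27% lower in WT, so the share of these genes that fell in iKO was near that of all genes. Under median-of-ratios scaling these counts were 9 and 2 in iKO, and 8 and 2 in WT. None was called between genotypes on HFD, where 0.172% of all tested genes were called. On chow none rose and 4 fell in iKO (Cd36, Mttp, Acot1 and Fabp3), where 0.344% of all tested genes were called higher and 0.72% lower. The 4 became 3 without RT1 and RT4, and 2 without RT4 and RT7. Without RT4 and RT7 the iKO diet counts became 7 higher and 0 lower, and the iKO diet calls of Calr, Sdc4, Sorl1, Pparg and Fabp4 were among those lost. The lists' median log2 fold change was 0.07 for genotype on HFD, 0.00 for genotype on chow, -0.03 for diet in iKO and -0.05 for diet in WT, against 0.06, 0.05, -0.07 and -0.08 over all tested genes.

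Of 11 tested genes for the maturation and transport of the lipase, none was called between genotypes. Of all tested genes 0.172% were called between genotypes on HFD and 1.06% on chow. With HFD 2 fell in iKO hearts, where 8.36% of all genes were called lower, and 4 fell in WT hearts, where 7.27% were, and none rose. Calr, a chaperone of glycoproteins in the endoplasmic reticulum, averaged 80.9 FPKM in iKO HFD hearts and 96.4 FPKM in iKO chow hearts (log2 fold change -0.25, adjusted p = 0.0157), and 82.4 FPKM in WT HFD hearts and 105 FPKM in WT chow hearts (-0.35, adjusted p = 0.00215). Its call in iKO was lost under median-of-ratios scaling (adjusted p = 0.0849) and without RT4 (adjusted p = 0.0505). Sdc4, a heparan sulphate proteoglycan of the cell surface, averaged 4.04 FPKM in iKO HFD hearts and 6.11 FPKM in iKO chow hearts (-0.51, adjusted p = 0.00749). In WT it averaged 3.14 FPKM on HFD and 4.59 FPKM on chow (-0.43, adjusted p = 0.0249). Sel1l, an endoplasmic reticulum degradation factor that lipase maturation needs in mouse, and Sort1, a sorting receptor, were called in WT as deposited (log2 fold changes -0.23 for Sel1l and -0.39 for Sort1). The WT call of Sel1l was lost without RT1 or RT3, and that of Sdc4 without RT1, RT3, RT12, RT18 or RT19 (adjusted p up to 0.0611 and 0.0735). Of these 4 calls in WT only that of Calr held under either other scaling.

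Among cofactors and inhibitors, Apoe passed the filter, whereas Apoc2, Apoc1 and Angptl8 had group means of at most 0.12 FPKM. Apoe, a ligand of both receptors, averaged 186 ± 69.3 FPKM in iKO HFD hearts and 121 ± 6.48 FPKM in WT HFD hearts (log2 fold change 0.52, adjusted p = 0.310), and 223 ± 67.2 FPKM in iKO chow hearts and 152 ± 21.3 FPKM in WT chow hearts (0.51, adjusted p = 0.349; SD, n = 5 each). It was spread widely among iKO libraries, as Lrp1 was.

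Of 9 other lipoprotein receptors tested, Cd36, the scavenger receptor through which heart muscle takes up fatty acids, was called in 3 comparisons. It averaged 669 FPKM in iKO chow hearts and 819 FPKM in WT chow hearts (log2 fold change -0.30, adjusted p = 0.00926), without overlap, and the call was lost without RT4 together with RT1 or RT7. With HFD it rose to 920 FPKM in iKO hearts, against 669 FPKM on chow (0.46, adjusted p = 2.38e-05). In WT it averaged 952 FPKM on HFD and 819 FPKM on chow (0.21, adjusted p = 0.0283), a call lost without RT5, RT8, RT10, RT12, RT14 or RT18 (adjusted p up to 0.0711). Sorl1, a sorting receptor related to Vldlr, fell with HFD in both genotypes (-0.52 in iKO, adjusted p = 0.00549, and -0.47 in WT, adjusted p = 0.0136). Lrp4, Lrp5, Lrp6, Lrp10, Lrp11, Lrp12 and Scarb1 were called in no comparison, and Lrp2, Lrp8 and Lsr were under the filter.

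Mylip, a ubiquitin ligase that marks the VLDL receptor for degradation, rose with HFD in WT hearts, to 9.33 FPKM against 6.07 FPKM on chow (log2 fold change 0.55, adjusted p = 0.00556). In iKO hearts it averaged 9.5 FPKM on HFD and 7.23 FPKM on chow, and was called as deposited (0.36, adjusted p = 0.0482). The iKO call was lost under both other scalings (adjusted p = 0.0505 and 0.0517) and in 8 of 9 alternatives in all (adjusted p up to 0.248), and in 13 of 20 fits that each left out 1 library, with an adjusted p up to 0.142. Snx17, a trafficking adaptor, was called lower with HFD in iKO (-0.17, adjusted p = 0.0373), but not under either other scaling (adjusted p = 0.434 and 0.301), and Lrpap1, Dab2 and Mesd were called in no comparison. Apob, the structural protein of VLDL, was near 0 in every group. Mttp, which loads lipid onto Apob, averaged 1.85 FPKM in iKO chow hearts and 2.73 FPKM in WT chow hearts (-0.38, adjusted p = 0.0106), a call lost without RT4 and RT7. Its call with HFD in WT (-0.26, adjusted p = 0.0426) was lost under both other scalings. Of other lipases, Lipa, the lysosomal one, was called in no comparison, and Lipc and Lipg had group means of at most 0.03 FPKM.

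Among 6 endothelial regulators and fatty acid carriers, Pparg, a nuclear receptor of fatty acids, rose with HFD in both genotypes. It averaged 5.93 FPKM in iKO HFD hearts and 4.37 FPKM in iKO chow hearts (log2 fold change 0.38, adjusted p = 0.0144), and 6.17 FPKM in WT HFD hearts and 4.33 FPKM in WT chow hearts (0.43, adjusted p = 0.00912). The iKO call was lost with the 2 groups alone, without RT1 and RT4, and without RT4 and RT7 (adjusted p up to 0.0867). Fabp4, the fatty acid binding protein of adipocytes and capillary endothelium, averaged 514 FPKM in iKO HFD hearts and 404 FPKM in iKO chow hearts (0.36, adjusted p = 0.00745), a call lost without RT4 and RT7, and its test in WT did not pass. Meox2, Tcf15, Fabp5 and Vegfb were called in no comparison. No gene of this list was called between genotypes, where 0.172% of all tested genes were on HFD and 1.06% on chow.

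Across the 20 libraries, the genes whose log2 levels were most like each of the 6 were found by Pearson correlation over all tested genes, as a description. The libraries share groups and diet, so r is also given within groups, after each group's mean was subtracted. Angptl4 was most like Pdk4 (r = 0.94 over 20 libraries, 0.80 within groups), Plin2 (0.92 and 0.63) and Ucp3 (0.92 and 0.82). Gpihbp1 was most like Herpud1 (0.93 and 0.92), Bcl2l1 (0.90 and 0.90) and Ly6c1 (0.87 and 0.85), so its likeness was as strong between mice of a group as across all. Lpl was most like Chchd3 (0.92 and 0.65), Aldh6a1 (0.91 and 0.80) and Gstm6 (0.91 and 0.37). Among the genes most like Vldlr were Scd4 (0.84 and 0.34) and Synj2 (0.84 and 0.52). Lmf1, which varied little, had the weakest partners, Pex19 (0.76 and 0.73), Phb2 (0.74 and 0.77) and Pex16 (0.73 and 0.78), and the first of these fell to 0.62 without the 2 libraries farthest from the median of Lmf1. Lrp1 was most like Fbln1 (0.95 and 0.93), Dcn (0.95 and 0.93) and C1ra (0.95 and 0.92), where the 5 high iKO libraries stand apart from the rest. By ranks (Spearman) over the 20 libraries these were 0.73, 0.73 and 0.70. With the summed fibroblast markers, Lrp1 had an r of 0.98 over the 10 iKO libraries and of 0.12 over the 10 WT libraries. That sum rests largely on Dcn, so this is not separate from the likeness to Dcn.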

How the data were processed

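Poly(A) TruSeq libraries of left ventricular RNA (integrity number above 8) were read as 100 nt single ends on a HiSeq instrument, per the labels' protocols. The authors deposited 1 table per library with FPKM per gene, to 2 decimals. Bowtie2, RSEM and DESeq2 (no versions or roles) and the build mm9 are given by the submitters' processing notes. The gene IDs are versioned Ensembl IDs, of which 24938 of 25052 are in GENCODE M21, so coordinates are given on GRCm38 by ID.

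FPKM are not counts, so limma 3.58.1 (R 4.3.3, intensity trend, robust variance) was fitted to log2(FPKM + 1), which understates changes of low genes. A gene was kept where 5 or more libraries reached 0.5 FPKM (12775 genes). The 4 group means of 20 libraries share 1 residual variance (16 degrees of freedom), with Benjamini-Hochberg adjustment over all genes tested. Errors are limma's SE, or SDs over 5 mice. Python 3.11.15 with pandas 2.3.3 and numpy 2.4.6 made the tables. The script was tested on simulated data. It recovered 55% to 66% of the smaller changes set there, depending on the comparison, and 94% to 96% of the larger ones, so small differences can be missed. Depth came from the spacing of low FPKM values, which is that of single reads, in genes of 1 short transcript, of which 56.8% to 75.0% per library came out whole within 0.05 reads, too few to recover counts.

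The 6 genes, the gene lists and the tests were chosen with earlier results of these data known. Named were the 6 genes, the pathway genes by list, and up to 3 genes most like each. Some genes of these lists are not reported here and were left out of the lists' counts and medians. Mesd was matched through a gene name table by its older symbol. Alternatives were 2 other scalings, a pseudocount of 0.1, no filter, no trend, quality weights, the 2 groups alone, and left-out libraries. RT1 and RT4 (atrial markers), and RT4 and RT7 (RT7 had the lowest estimated depth), were left out as pairs because an earlier look at these data had set them apart.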

Additional observations from a re-analysis of the deposited data

Results flagged for a closer look

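In 2 of 28 sets of 5 libraries examined, 1 library lay far from the other 4, where chance gives about 1 in 20. The 28 sets did not cover every summed marker. In WT chow hearts RT1 had the highest sums of atrial, fibroblast and adipocyte markers (691.36, 406.45 and 3.93 FPKM). The next highest sums in that group were 137.48, 349.21 and 1.08 FPKM. Vldlr in iKO HFD hearts was 42.9 FPKM in RT13, with a gap to the nearest library of 0.738 of the group's range. Lmf1 in WT HFD hearts was 8.16 FPKM in RT14, with a gap of 0.815 of the range. The critical value for 5 samples is 0.71.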

How the results depend on the processing

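The numbers of genes called moved by more than 1.5 times as follows. Genotype on HFD gave 22 as reported, 7 without a filter, 14 without trend and robust moderation, 95 with quality weights and 5 with the 2 groups alone. Genotype on chow gave 136, 87 without RT1 and RT4, and 73 without RT4 and RT7. Diet in iKO gave 1279, 565 under median-of-ratios scaling, 594 under upper-quartile scaling, 830 without a filter, 710 with the 2 groups alone, 844 without RT1 and RT4, and 525 without RT4 and RT7. Diet in WT gave 1027, 332 and 353 under these scalings, 622 without a filter and 2092 with quality weights. The interaction gave 4 by limma (480 at an unadjusted p under 0.05) and 0 under both scalings, without a filter, without trend and robust moderation, without RT1 and RT4, and without RT4 and RT7.

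Leaving out each library in turn, these counts ran from 6 to 39, 92 to 151, 878 to 1475, 625 to 1181 and 0 to 5. No paired analysis was possible because no library number is shared between groups.

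Of the calls of the 6 genes, those of Lpl between diets were lost under scaling (-0.16 and -0.18 in iKO, -0.23 in WT under median of ratios), and Lpl on HFD was gained with quality weights. The calls of Lpl and Vldlr on chow and of Angptl4 on both diets were kept in all 20 fits with a library left out and in the other alternatives run. Over those 20 fits Lpl on chow ran from -0.30 to -0.24, Vldlr on chow from -0.52 to -0.48, and Angptl4 from 2.03 to 2.37 in iKO and from 1.25 to 1.56 in WT.

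Among the 6 genes signs turned where differences were near 0: Lmf1 for genotype on HFD (0.04; -0.033 and -0.016 under the scalings) and Lrp1 for diet in WT (0.0021; -0.011 with quality weights). With a library left out, Gpihbp1 for genotype on HFD ran from -0.12 to 0.058 and its interaction from -0.051 to 0.13, Lmf1 for genotype on HFD from -0.030 to 0.075 and for diet in WT from -0.021 to 0.078, and Lrp1 for diet in iKO from -0.10 to 0.19, for diet in WT from -0.045 to 0.066 and for the interaction from -0.11 to 0.19. The causes were not tested. Depth limits Angptl4 on chow most, at an estimated 43 reads in RT6.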
